A study of Triticum aestivum and Triticum urartu with 56 samples.

Results

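The central regions examined here are the stretches from 40% to 60% of the length of each of the 21 chromosomes of bread wheat, a span of 2813 Mb out of 14066 Mb. The length of a chromosome was taken as the highest position with a tag in any Chinese Spring CAGE library, so that position alone chose the stretches and no measured level did. In these stretches lay 17519 of 134287 CAGE clusters, against 115100 in the rest of the 21 chromosomes and 1668 on sequence not assigned to a chromosome. A CAGE cluster joins tagged positions of 1 strand that lie no more than 20 bp from each other, and needs 2 or more tags in each of 2 libraries of a tissue. Clusters of different tissues were merged where they overlapped.

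Bread wheat carries 3 related subgenomes, A, B and D, and chromosomes of the same number, such as 2A, 2B and 2D, form a homoeologous group. The inner part of wheat chromosomes holds the centromere and is known for abundant transposable elements, sparse genes and rare recombination, whereas genes crowd towards both ends. CAGE records the capped 5′ ends of transcripts and so marks where transcription starts, and H3K4me3 and H3K9ac are histone marks typical of active promoters.

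The study mapped transcription start sites in wheat, with an interest in RNA from enhancer-like elements (ELE-RNA) inside transposable elements. CAGE of the cultivar Chinese Spring came from untreated above-ground seedlings grown for 9 days in soil (4 libraries), spikelets at booting, Feekes stage 10 (called spike, 2 libraries), immature embryos 14 days post anthesis (3 libraries) and roots grown for 9 days in Hoagland solution (2 libraries). A further 2 CAGE libraries came from embryos of *Triticum urartu* G1812, a diploid relative of the A subgenome, at 14 days post anthesis. H3K4me3 and H3K9ac peaks came from wild-type JW1 spikelets at Feekes stage 10, with 1 library per mark, and RNA-seq of Chinese Spring root and embryo had 1 library each. A second tissue field of the labels names seedlings for every Chinese Spring library, and groups were taken from the field that differs. No source used here says whether libraries of a tissue came from separate plants, so p-values measure the spread between these libraries, which may be technical. Chinese Spring libraries held 2970800 to 24399682 tags. Over the 17519 central clusters, Spearman's rho between libraries ranged from 0.37 to 0.77 within a tissue and from 0.11 to 0.34 between tissues.

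Transcription start sites were sparser in the central regions than in the rest of the chromosomes. Over all tissues there were 6.23 merged clusters per Mb in the central regions and 10.2 in the rest, a ratio of 0.609. All 21 chromosomes had fewer clusters per Mb in their central region than outside it. Counting in each library the clusters with 2 or more tags, the density was 2.42 ± 0.70 per Mb in the central regions and 3.73 ± 1.17 in the rest (SD, n = 11 libraries). The ratio of central to rest was 0.654, 0.658, 0.679 and 0.672 in the 4 seedling libraries, 0.664 and 0.669 in the 2 spike libraries, 0.664, 0.662 and 0.649 in the 3 embryo libraries, and 0.609 and 0.612 in the 2 root libraries. Every library lay below 1, and the ratios were far closer to each other than to 1. All 11 libraries were counted on 1 shared set of clusters and are not independent observations of the chromosomes. The mean log2 ratio was -0.61, a density 0.653 times that of the rest (p = 0.000977, two-sided exact sign-flip permutation test over 11 libraries, the smallest p this test can give). After every library was thinned to the tags of the smallest, the log2 ratio was -0.62. Only uniquely mapped reads entered the files, and the part of unequal mapping between repeat-rich and other sequence was not tested.

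**Figure D1:**
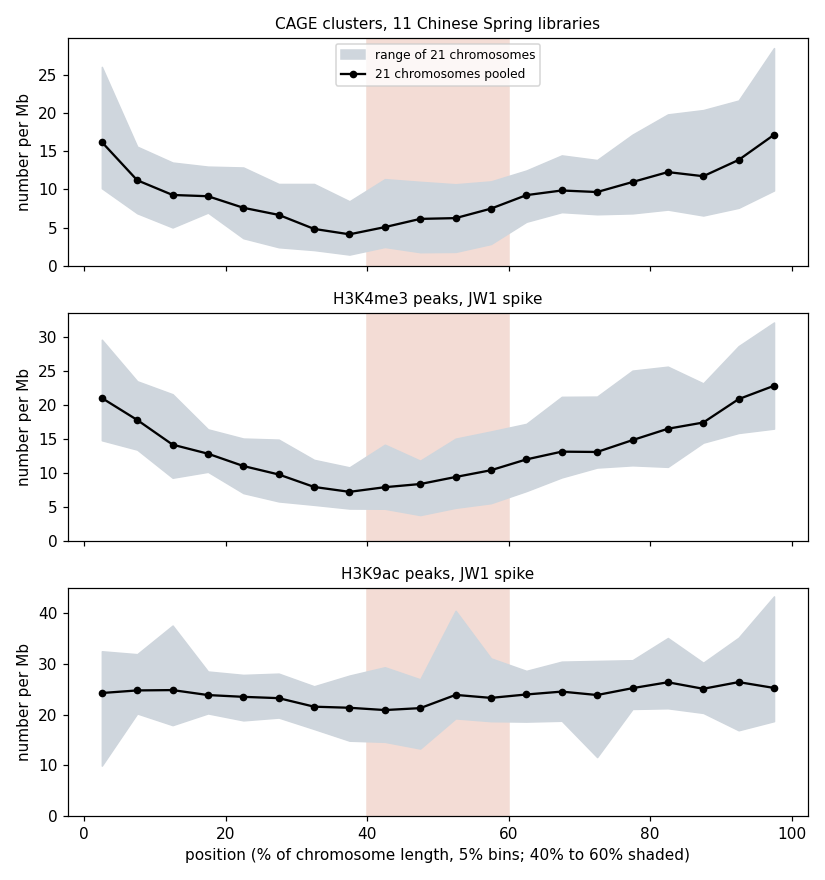
Number per Mb of CAGE clusters, H3K4me3 peaks and H3K9ac peaks in 5% bins along the chromosome (x axis, percent of length). Black points pool the 21 chromosomes, the grey band spans the lowest to the highest chromosome, and the central regions are shaded; pooled cluster density was lowest, 4.12 per Mb, in the bin from 35% to 40%, just outside the shading.

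The middle of the length was not the emptiest place on most chromosomes. In 5% bins pooled over chromosomes, cluster density was 5.06 per Mb from 40% to 45%, 6.14 from 45% to 50%, 6.24 from 50% to 55% and 7.48 from 55% to 60%. Density thus climbed across the central regions, from the low-numbered to the high-numbered side, and the lowest bin of all lay at 35% to 40% with 4.12 per Mb. At the chromosome ends it was 16.2 per Mb in the first bin and 17.1 in the last. The lowest bin fell inside the central region on 8 of 21 chromosomes, 2D, 3A, 4D, 6A, 6B, 6D, 7A and 7D, and on the other 13 it lay between 25% and 40%. On 5A, 5B and 5D it lay at 25% to 30%. The name central therefore describes a position on the physical length and not the place with the fewest start sites.

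Chromosomes differed widely in how empty their central region was. Chromosome 6A had the sparsest one, with 2.40 clusters per Mb in the centre and 10.2 in the rest, a ratio of 0.237, the lowest of the 21. Chromosome 5D had the densest central region, with 10.7 clusters per Mb against 12.6 in the rest. The highest ratio was 0.894 on 5B, with 9.23 clusters per Mb in the centre and 10.3 in the rest. The central regions spanned a much broader range, 2.40 to 10.7 clusters per Mb, than the rest of the same chromosomes, which spanned 8.32 to 12.7.

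Chromosomes of groups 1 and 5 resembled each other in this ratio, and those of the other groups less so. It lay between 0.843 and 0.894 on the 3 chromosomes of group 5 and between 0.745 and 0.797 on those of group 1, so that the highest was 1.06 and 1.07 times the lowest. It lay between 0.237 and 0.426 in group 6 and between 0.332 and 0.507 in group 4, the lowest groups, where the highest was 1.80 and 1.53 times the lowest. In groups 2, 3 and 7 it lay between 0.453 and 0.884, 0.490 and 0.859, and 0.396 and 0.796, or 1.95, 1.75 and 2.01 times. The order of the 21 chromosomes was much alike between tissues: the ratios of seedling clusters correlated across the 21 chromosomes with those of embryo (Pearson's r = 0.98, Spearman's rho = 0.96) and root (r = 0.95, rho = 0.94), where the tissues share the same chromosomes and lengths. The lowest ratio was on 6A in each of the 4 tissues.

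**Figure D2:**
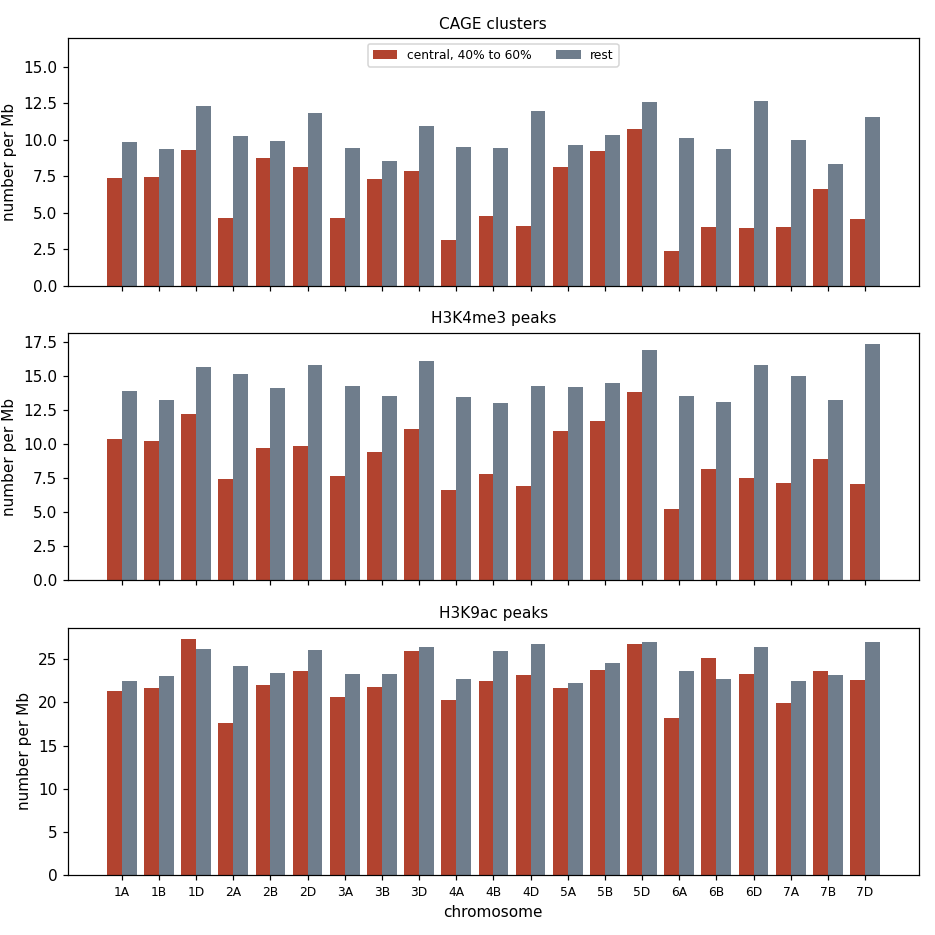
CAGE clusters, H3K4me3 peaks and H3K9ac peaks per Mb (y axes) in the central region (left bar) and the rest (right bar) of each of the 21 chromosomes (x axis). The central bar is the lower one on all 21 chromosomes for clusters and H3K4me3 peaks, and on 18 for H3K9ac peaks.

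Central regions of the B subgenome were the least depleted. Over the 11 libraries, the central density was 1.89 ± 0.56 clusters per Mb in A, 2.70 ± 0.77 in B and 2.73 ± 0.79 in D, against 3.60 ± 1.14, 3.37 ± 1.07 and 4.35 ± 1.36 in the rest of the same subgenomes (SD, n = 11). B and D were thus near each other in central density, while D was the densest outside. The ratio of central to rest ranged over libraries from 0.492 to 0.547 in A, from 0.738 to 0.854 in B and from 0.594 to 0.653 in D, with no overlap. Over the 7 chromosomes of each subgenome, the merged-cluster ratios did overlap. They lay between 0.237 and 0.843 in A, 0.426 and 0.894 in B, and 0.312 and 0.852 in D. The libraries were all counted on 1 shared set of clusters, so the p-values below cover the spread between libraries and not that between chromosomes. The log2 ratio of A was lower than that of B by a mean of -0.61 and than that of D by -0.26, and that of B was higher than that of D by 0.35, each in 11 of 11 libraries (adjusted p = 0.000977 for each of the 3 differences, two-sided exact sign-flip permutation test, the smallest it can give). B had the highest merged-cluster ratio in 7 of 7 homoeologous groups and A the lowest in 6, the exception being group 7, where 7D was at 0.396 and 7A at 0.402.

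Seedling had 9313 central clusters, or 3.31 per Mb, spike 6326, or 2.25 per Mb, embryo 4825, or 1.72 per Mb, and root 8530, or 3.03 per Mb. These counts depend on library number and depth, since the rule of 2 libraries is easier to meet with 4 libraries than with 2. Counting clusters with 2 or more tags in each library put root first. The root libraries had 9403 and 9587 central clusters and the seedling libraries 5042 to 8401. The spike libraries had 7040 and 8496, and the embryo libraries 4012 to 4876. After thinning to the smallest library, root had 6996 and 6960 and seedling 4137 to 6463. Root had the lowest ratio of central to rest and its 2 libraries lay below the other 9. Its log2 ratio was -0.12 lower than the mean of the other libraries (exact permutation p = 0.0182, the smallest that 2 of 11 libraries can give, and 0.0727 after adjustment over 4 tissues), so the difference did not pass. Seedling differed by 0.04 (adjusted p = 0.436), spike by 0.04 (adjusted p = 0.655) and embryo by 0.01 (adjusted p = 0.848) in the same exact test. Chromosome 2B was the only one whose central region reached the density of its rest in seedling, spike and embryo, with ratios of 1.02, 1.00 and 1.03.

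The level of capped RNA, read as tags rather than clusters, was depleted further in the central regions and differed between tissues. The central regions make up 20% of the length and held 12.5%, 15.05%, 15.5% and 15.9% of the placed tags in the 4 seedling libraries, 11.3% and 11.4% in the spike libraries, 8.96%, 9.23% and 8.24% in the embryo libraries, and 10.9% and 10.8% in the root libraries. All 4 seedling libraries lay above and all 3 embryo libraries below every other library. Per Mb, the central regions held 41.6 ± 9.4 RPM, tags per 1000000 tags of the library, and the rest 77.6 ± 2.3 RPM (SD, n = 11). The mean log2 ratio of tag densities was -0.93 (p = 0.000977, exact sign-flip permutation test over 11 libraries, the smallest possible).

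Seedling exceeded the other tissues in central tag density, relative to the rest, by 0.62 on the log2 scale, or 1.54-fold (adjusted p = 0.0121, two-sided exact permutation test over libraries, 4 tissues). Embryo was lower by a log2 difference of -0.60, or 0.657-fold (adjusted p = 0.0242, same exact test), and spike and root did not pass (adjusted p = 0.927 and 0.897, exact). In bulk tissue, more cells of a type and more RNA per cell cannot be told apart. Neither the seedling nor the embryo difference passed when the median over chromosomes was used in place of the pooled tags (adjusted p = 0.521 and 0.194, exact), and the embryo one did not without embryo replicate 3 (adjusted p = 0.0889, exact).

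The seedling excess was spread unevenly over the homoeologous groups, with the highest values in groups 2, 3 and 7. Taken group by group, the seedling log2 difference was 1.33 in group 2 and 0.76 in group 3 (adjusted p = 0.0212 for both, exact permutation test, 14 tests of seedling and embryo in 7 groups), 0.90 in group 7 (adjusted p = 0.0707, exact) and between -0.11 and 0.03 in groups 1, 4, 5 and 6. In group 7, the central regions held 7.17%, 13.4%, 13.1% and 13.5% of the tags in the 4 seedling libraries, against 8.41% and 8.74% in spike, 3.94% to 5.37% in embryo and 8.10% and 8.22% in root, so that seedling replicate 1 overlapped the other tissues there and replicates 2 to 4 did not. The embryo difference was -1.17 in group 7 (adjusted p = 0.0283, exact), and in no other group did it pass. It was nearly as large in group 2, at -1.07 (adjusted p = 0.0707, exact). It was -0.36 in group 1, -0.32 in group 4 and between -0.11 and 0.02 in groups 3, 5 and 6.

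In groups 2 and 3 all seedling libraries lay above the other tissues. On these 6 chromosomes, the central regions held 24.7% to 29.4% of the tags in the 4 seedling libraries, against 15.1% to 15.4% in spike, 14.6% to 15.2% in embryo and 15.7% to 15.8% in root. On the other 15 chromosomes they held 7.29% to 9.71% in seedling, against 9.81% to 9.85% in spike, 6.40% to 7.44% in embryo and 8.84% in both root libraries. Chromosomes 3D and 3B were exceptions. On 3D the seedling mean was 18.97% and the embryo mean 21.2%. On 3B, seedling replicate 1 held 25.1%, below the 25.8% and 25.7% of the root libraries, and replicates 2 to 4 held 27.1% to 27.8%. Groups 2 and 3 supplied 58.4 ± 2.2% of all central tags in seedling, against 38.5% to 42.2% in the 7 libraries of the other tissues. Without them the seedling difference was 0.13 on the log2 scale and did not pass (adjusted p = 0.545, exact), and it was 0.23 when seedling replicate 1, the lowest of the 4 there, was also left out (adjusted p = 0.278, exact). Embryo was at -0.43 without them (adjusted p = 0.0485, exact). Without groups 2, 3 and 7 neither passed, with differences of -0.11 for seedling and -0.16 for embryo (adjusted p = 0.416 and 0.291, exact). These splits were chosen after the same tags had been seen by group, so they describe where the differences lay. The 10 highest central clusters held 27.9% to 34.2% of the central cluster tags in seedling and 26.4% to 28.9% in embryo, so the 2 tissues overlapped. They held 14.5% to 14.8% in spike and 18.3% to 19.4% in root. The same share was not measured for the rest of the chromosomes.

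**Figure D3:**
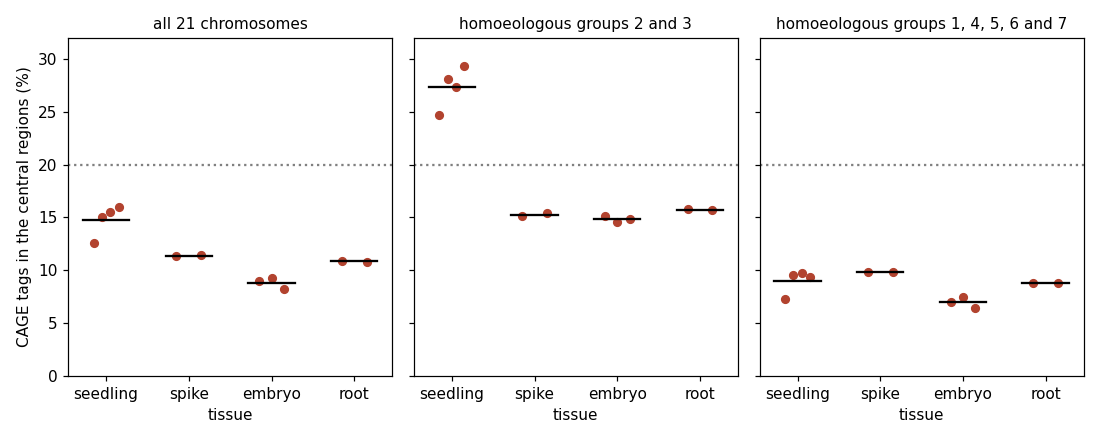
Percent of placed CAGE tags that fell in the central regions (y axis) in each library (points) and the mean of each tissue (bars), for all 21 chromosomes, for groups 2 and 3, and for the other 5 groups. The dotted line marks 20%, the share of the length; only the 4 seedling libraries on groups 2 and 3, at 24.7% to 29.4%, lie above it.

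Many of the most used central start sites were highest in seedling. Of the 20 central clusters with the highest mean RPM over the 11 libraries, a mean in which seedling counts 4 times, 14 had their highest tissue mean in seedling, 2 each in spike, embryo and root, and 18 lay on chromosomes of groups 2 and 3. With each tissue weighted equally, 19 of the 20 were the same, and among the 20 then ranked seedling was highest in 13, spike in 3, embryo in 2 and root in 2. By the mean over libraries the 3 highest were on 3A and 2A. With tissues weighted equally, the first stayed first, the other 2 were at ranks 4 and 7, and ranks 2 and 3 went to a cluster highest in root, on 2D at 352767843, and one highest in spike, on 7D at 265695956. For these clusters, no gene name could be given from the sources used here. The highest, on the minus strand of 3A at 418770324 to 418770460 (coordinates on the joined chromosomes of the files' IWGSC build, here and below), had 9521, 3266, 5140 and 4895 RPM in seedling, 167 and 170 RPM in spike, 0.661 to 8.08 RPM in embryo and 4.08 and 7.94 RPM in root. By the same mean the next, on the plus strand of 3A at 430330534 to 430330657, had 1501, 8525, 4612 and 4495 RPM in seedling and at most 1.68 RPM in any other library. The third, on the plus strand of 2A at 387775868 to 387775977, had 5340, 1621, 3395 and 5534 RPM in seedling, 348 and 293 RPM in spike, and 0.331 to 2.72 RPM in embryo and root. In each of the 3, every seedling library was above every other library, although the seedling libraries themselves spread more than 2-fold.

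Each tissue had central clusters with a higher level than in the other tissues, at shares that were below those over all clusters tested. Of 12164 central clusters tested with edgeR, 2143, or 17.6%, were higher in seedling than in the other 3 tissues averaged (adjusted p under 0.05 and a log2 fold change of 1 or more, Benjamini-Hochberg over all 93013 clusters tested), where the share over all clusters tested was 18.8%. Root had 1161 higher central clusters, or 9.54%, against 13.6% of all clusters. Spike had 385, or 3.17%, against 3.91% of all clusters, and embryo had 179, or 1.47%, against 2.15% of all clusters. Lower in a tissue were 193 central clusters for seedling (1.59%, against 2.27% of all), 131 for embryo (1.08%, against 1.2% of all), 66 for root (0.543%, against 0.507% of all) and 13 for spike (0.107%, against 0.142% of all). The central share of clusters higher in root was below that of the rest, 9.54% against 14.2%, and it stayed below it in all 15 alternative fits, which share their libraries. The central share of higher clusters was also below that of the rest in all 15 for seedling and embryo, and in 14 of 15 for spike. A cluster could enter through 1 tissue alone, and 66.3% of the central clusters were made in 1 tissue only. Such a rule favours calls of higher over calls of lower, so the numbers of higher and lower clusters are not compared. The same rule made the clusters of both zones.

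The counts themselves depended strongly on single libraries, over all clusters tested as well as in the central regions. In each fit named below, the share of higher clusters moved the same way over all clusters tested as in the central regions. The counts are thus not a trait of the central regions. Leaving out a spike or root replicate left 1 library in that tissue. It also changed the clusters tested, with 15091 central ones without spike replicate 1 against 12164 in the main fit. Without seedling replicate 4, 6.61% of 11049 central clusters tested were higher in seedling, and 7.38% of all clusters tested. Without seedling replicate 1, 7.29% of central clusters were higher in spike, and 8.94% of all. The 2143 seedling clusters became 730 without seedling replicate 4, 319 and 331 without spike replicate 1 or 2, and 566 and 527 without root replicate 1 or 2. The 1161 root clusters became 28 and 22 without spike replicate 1 or 2. The 385 spike clusters became 852 without seedling replicate 1, 835 and 30 without spike replicate 1 or 2, and 107 and 95 without root replicate 1 or 2. The 179 embryo clusters became 73 and 68 without spike replicate 1 or 2, 99, 96 and 106 without embryo replicate 1, 2 or 3, and 116 without root replicate 2.

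In seedling, the 2 higher central clusters with the smallest p were on 2D and 3D. The one on the plus strand of 2D, 382179744 to 382179902, had 3269, 4562, 2989 and 3758 RPM in seedling and 0.397 to 8.47 RPM in the other 7 libraries (adjusted p = 9.80e-06). The one on the plus strand of 3D, 313285896 to 313285964, had 3394, 2697, 2693 and 2446 RPM in seedling, 141 and 123 RPM in spike and at most 4.60 RPM in embryo and root (adjusted p = 1.28e-05). It was also the lower central cluster with the smallest p in embryo, where it had 0.397, 0.673 and 0.551 RPM (adjusted p = 0.000261). Neither cluster overlapped a JW1 spike peak of H3K4me3 or H3K9ac. The lower one in seedling, on the plus strand of 4B at 380719891 to 380720050, had 0, 0, 0.164 and 0.221 RPM in seedling and 78.5 to 472 RPM in the other 7 libraries (adjusted p = 0.000239).

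In spike, a cluster on the minus strand of 3B at 385143550 to 385143590 had 920 and 825 RPM and at most 0.327 RPM in the other 9 libraries (adjusted p = 0.00416). A cluster on the minus strand of 3A at 431128377 to 431128393 had 363 and 324 RPM in spike, 9.33 to 19.9 RPM in seedling, and 0.0661, 0 and 0 RPM in embryo and no tag in root (adjusted p = 0.00416). The lower one in spike, on the minus strand of 7D at 358718097 to 358718107, had no tag in either spike library, which allows up to 0.493 and 0.123 RPM at 3 counts, and 4.04 to 31.4 RPM in the other 9 libraries (adjusted p = 0.0306).

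In embryo, a cluster on the plus strand of 3B at 421612409 to 421612557 had 1510, 1466 and 959 RPM and at most 5.43 RPM in the other 8 libraries, and one on the minus strand of 1D at 291807303 to 291807378 had 1238, 1161 and 773 RPM and at most 0.655 RPM elsewhere (adjusted p = 0.000261 for both). In root, a cluster on the minus strand of 2D at 352767843 to 352768110 had 4433 and 4732 RPM and 122 to 303 RPM in every other library, so that it was used in all 4 tissues (log2 fold change 4.05, adjusted p = 0.00595). A cluster on the plus strand of 1B at 330839162 to 330839176 had 110 and 117 RPM in root, 4.10 to 4.71 RPM in embryo and at most 0.111 RPM in seedling and spike (adjusted p = 0.00595). The lower one in root, on the plus strand of 5D at 307967712 to 307967826, had no tag in either root library, which allows up to 0.314 and 0.179 RPM, and 0.926 to 162 RPM in the others (adjusted p = 0.0103). Intervals and such limits cover counting error only, since no removal of PCR copies is described.

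**Figure D4:**
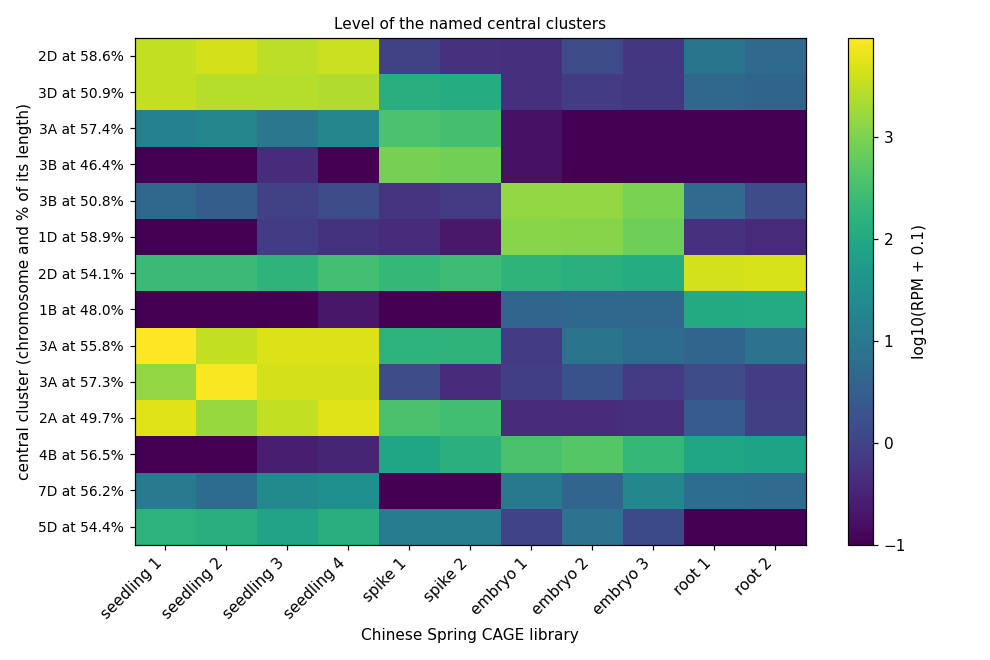
Level of the 14 named central clusters (rows, by chromosome and percent of its length) in the 11 Chinese Spring libraries (columns), as log10(RPM + 0.1). Rows 1 to 8 are the clusters higher in seedling, spike, embryo and root, the next 3 are the 3 highest central clusters, and the last 3 are lower in seedling, spike and root. All but the 3 highest were chosen for not overlapping the other tissues in the tissue named, and the 2D cluster at 54.1% is the one with 122 to 303 RPM outside root.

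Central clusters were more often shared between tissues. In 8.95% of the 17519 central clusters, and in 6.86% of the 115100 others, a cluster was made in all 4 tissues, and 66.3% of central clusters, against 69.7% of the others, were made in 1 tissue only. Among the clusters with 2 or more tags in a library, the share found in all 4 tissues was 22.4 ± 5.9% in the central regions and 18.5 ± 5.1% in the rest (SD, n = 11), a difference of 3.91 percentage points seen in 11 of 11 libraries (adjusted p = 0.00195, two-sided exact sign-flip permutation test over 4 properties). Clusters longer than 10 bp made up 63.3 ± 4.0% in the central regions and 61.3 ± 4.2% in the rest, a difference of 1.97 points, again in 11 of 11 libraries (adjusted p = 0.00195, exact). Both traits, like the strand, were set once for the merged clusters and are the same in every library. The 11 libraries thus draw on 1 shared set of clusters, and their agreement is not 11 independent observations. The median level was nearly the same, with a difference of -0.02 in log2 RPM (adjusted p = 0.414, exact). The plus strand carried 49.8% of central clusters and 50.3% of the others, a difference of -0.52 points (adjusted p = 0.00911, exact, lower in 9 of 11 libraries) that turned to 0.35 points in the narrower window of 45% to 55%.

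Start sites lay in islands with long empty stretches between them in both zones, and such stretches took up more of the central regions. Neighbouring clusters were a median of 1.74 kb apart in the central regions and 1.34 kb in the rest, while gaps over 1 Mb made up 36.3% of the central length and 21.5% of the rest. The longest cluster-free stretch of any central region was on 6D, from 211678413 to 219092134, or 7.41 Mb. It held 1785 tags of the 11 libraries at 94 positions, none of which met the cluster rule, and 32 H3K4me3 and 99 H3K9ac peaks of JW1 spike. It was followed by stretches of 5.37 Mb on 1B, from 289726382 to 295094932, and 4.43 Mb on 6B, from 320608659 to 325043553. The shortest of the 21 longest central stretches was 1.70 Mb, on 1D. On 9 chromosomes, the longest cluster-free stretch of the whole chromosome lay in the central region.

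H3K4me3 peaks were sparser in the central regions by about as much as clusters were, while H3K9ac peaks were less so in number. The difference between the marks was smaller among longer peaks and was not seen among those over 1 kb. JW1 spike had 9.00 H3K4me3 peaks per Mb in the central regions and 14.5 in the rest, a ratio of 0.621 (exact 95% binomial interval 0.612 to 0.629 from peak counts, with no replicate and so no test). H3K9ac had 22.3 peaks per Mb in the central regions and 24.3 in the rest, a ratio of 0.921 (0.913 to 0.929). H3K4me3 was lower in the centre on all 21 chromosomes, from a ratio of 0.390 on 6A to 0.819 on 5D. Among peaks over 1 kb both marks were alike, with 1.19 H3K4me3 peaks per Mb in the centre and 2.17 in the rest (ratio 0.55) and 0.47 H3K9ac peaks per Mb in the centre and 0.87 in the rest (ratio 0.54). Over all peaks, H3K9ac ranged from 0.726 on 2A to 1.11 on 6B and exceeded 1 on 3 chromosomes. The ratios of clusters and of H3K4me3 correlated across the 21 chromosomes (Pearson's r = 0.92, Spearman's rho = 0.89), and those of clusters and H3K9ac less closely (r = 0.57, rho = 0.62), where the cultivars differ and the chromosome lengths are shared. Peaks also covered less, at 5.25 kb per Mb for H3K4me3 in the centre and 8.95 in the rest, and at 7.83 kb per Mb for H3K9ac and 9.49 in the rest.

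H3K9ac peaks with and without H3K4me3 were distributed differently. H3K9ac peaks that overlapped an H3K4me3 peak by 1 bp or more numbered 6.14 per Mb in the centre and 10.1 in the rest, a ratio of 0.609. H3K9ac peaks without H3K4me3 numbered 16.2 per Mb in the centre and 14.2 in the rest, a ratio of 1.14, and were denser in the centre on 20 of 21 chromosomes, 2A being the exception at 0.911. Only 27.5% of central H3K9ac peaks overlapped H3K4me3, against 41.6% in the rest. The H3K9ac peaks without H3K4me3 were short, with a median of 222 bp in the centre and 221 bp in the rest, and the files carry no score that would rank them. Those of 300 bp or more were also denser in the centre, at 4.42 per Mb against 3.79. The part of background, peak calling and mapping in these peaks was not tested.

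**Figure D5:**
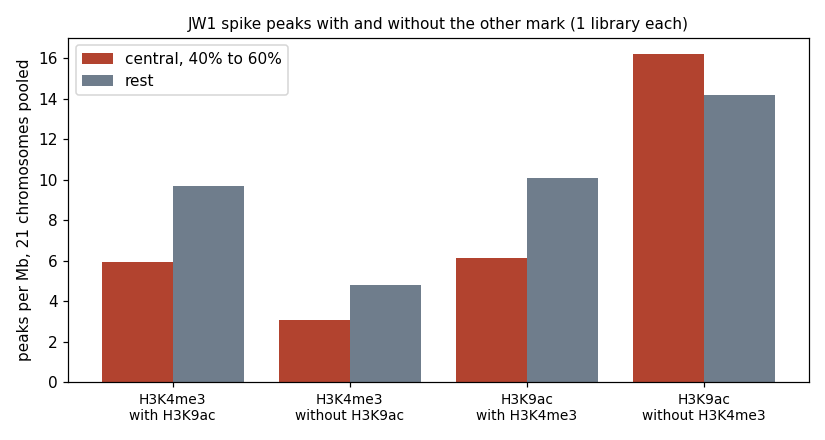
JW1 spike peaks per Mb (y axis) in the central regions (left bars) and the rest (right bars), split by overlap with a peak of the other mark. Peaks of 3 classes were sparser in the centre, and H3K9ac peaks without H3K4me3 were denser there, 16.2 against 14.2 per Mb.

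Where a central start site was active, it lay on marked chromatin at least as often as elsewhere. Of 6326 central spike clusters, 69.4% overlapped an H3K4me3 peak, 54.8% an H3K9ac peak and 54.1% both, against 64.5%, 50.8% and 49.8% of 37864 spike clusters in the rest. The share on both marks was higher in the central region on 19 of 21 chromosomes. The cluster and peak samples are of different cultivars, Chinese Spring and JW1, and 29.9% of central spike clusters overlapped neither mark, against 34.5% of the rest. In the other direction, 11.9% of central H3K4me3 peaks carried a spike cluster, against 10.0% in the rest, and 3.97% of central H3K9ac peaks did, against 4.94% in the rest.

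Of the ELE-RNA clusters that the study lists, 262 of 1620 from embryo lay in the central regions, as did 80 of the 377 root entries that could be read. The readable root entries lay on 4 chromosomes only, 1A, 1B, 1D and 2A, so no share is set beside that of all root clusters. Listed embryo clusters numbered 0.0931 per Mb in the centre and 0.117 in the rest. The embryo count is 16.6% of the placed list in the central regions, where 14.0% of all embryo clusters made here lay, and the list is not independent of these libraries. The central embryo entry with the highest level, on 5A at 382901607 to 382902016, had 102, 121 and 108 RPM in embryo and at most 0.553 RPM in the other 8 libraries. The next, on 2D at 308872822 to 308872890, had 20.96, 0 and 20.6 RPM in embryo, 2.63 and 0 RPM in spike, 0 and 5.26 RPM in root and none in seedling, so its embryo libraries spread from 0 to the highest level of any library. The 2 highest central entries among the readable root ones lay near each other on 1A, at 341154364 to 341154385 with 36.0 and 25.3 RPM in root and at 341173478 to 341173483 with 22.3 and 27.2 RPM, and in the other tissues there was 1 tag in 1 embryo library at the first and none at the second.

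Genes could be set beside central clusters on 1A only, through gene identifiers in the readable part of the study's list of start sites. There, 237 of 259 listed genes of the central region were found in the RNA-seq tables, and 78.1% of them reached 1 CPM in both root and embryo, against 68.3% of 1149 such genes in the rest of the chromosome. With 1 library per tissue this was not tested. The highest of these central clusters, at 287686643 to 287686783 with the identifier TraesCS1A02G160300, had 1496 and 1629 RPM in spike and at most 1.35 RPM in any other library, and 0.0966 CPM in root and 0.0295 CPM in embryo RNA-seq. TraesCS1A02G197300, at 355338609 to 355338743, was used in all tissues, with means of 168 ± 62 RPM in seedling (n = 4), 224 ± 1.8 RPM in spike (n = 2), 192 ± 81 RPM in embryo (n = 3) and 165 ± 18 RPM in root (n = 2), all SD, and with 18.3 CPM in root and 18.8 CPM in embryo RNA-seq. TraesCS1A02G162700, at 292077024 to 292077063, had 564 and 637 RPM in spike and at most 0.896 RPM elsewhere, with no RNA-seq read in root or embryo.

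*T. urartu* embryo showed a depletion of like size along its own chromosomes. Its clusters, made by the same rule from 5902766 and 8710684 tags, numbered 2.38 per Mb in the central regions of the 7 chromosomes and 4.42 in the rest, a ratio of 0.539. Embryo clusters of the wheat A subgenome numbered 1.34 per Mb in the centre and 2.54 in the rest, a ratio of 0.529. The lowest ratios were 0.324 on the *T. urartu* chromosome of group 4 and 0.365 on that of group 6, while the wheat chromosomes 4A and 6A had 0.329 and 0.266. The highest were on group 5 in both, at 0.769 and 0.863. With 2 libraries against 3, and different genomes, the species were not compared by a test.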

How the data were processed

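CAGE files hold counts that the authors made from uniquely mapped reads, one row per strand and 5′-end position, without normalization; per the methods, reads of rRNA, chloroplast and mitochondria were removed. The deposited RNA-seq read counts are per gene. The deposited peak lists hold positions of another unit than a level, with no score, and the submitters' processing notes name fastp 0.22.0, BWA 0.7.17-r1188 and MACS 1.4.2; their genome build is not given in the sources used here, but their chromosome parts carry the same names. FPKM files were not used.

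Each chromosome comes in 2 parts. The offset of the second part was the one at which the ends of the ELE-RNA clusters listed by the study fell on tags, as all 1953 placed on the 21 chromosomes did. Peaks and clusters belong to the zone of their midpoint. RPM used all tags of a library, and CPM all reads on genes. Densities were compared over 11 libraries by exact sign-flip or label permutation, two-sided. Cluster counts were fitted with edgeR 4.0.16 (quasi-likelihood, TMM, filterByExpr by tissue) in R 4.3.3, tested on simulated data first; DESeq2 1.42.0 and other settings were alternatives. Named clusters are the 3 central ones with the highest mean RPM, per tissue the 2 higher and 1 lower with the smallest p among called clusters whose libraries do not overlap the others, the 2 highest listed ELE-RNA clusters per tissue, and 3 genes on 1A. Members and lists were chosen with earlier results of these data known. Replicate numbers did not pair the libraries: deviations of same-numbered libraries correlated between -0.02 and 0.01.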

Additional observations from a re-analysis of the deposited data

Results flagged for a closer look

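The difference between tissues in central tag density stood out for seedling, which was higher than the other tissues relative to the rest of the chromosomes by 0.62 on the log2 scale, and for embryo, which was lower by -0.60. The central depletion of clusters differed between subgenomes in every library, with log2 differences of -0.61 for A minus B, -0.26 for A minus D and 0.35 for B minus D. The libraries share 1 set of clusters, and single chromosomes of the subgenomes overlapped. In 33 sets of 4 seedling values, 4 held a library far from the other 3. The rate of about 1 in 20 that chance gives does not apply to these sets. Some of them overlap, and some are clusters chosen for a level in another tissue above every seedling library. Seedling replicate 1 had 7.17% of the group 7 tags in the central regions, against 13.1% to 13.5% in the others (gap over range 0.93), and 7.29% against 9.35% to 9.71% over the 5 groups other than 2 and 3 (0.851). The other 2 were the spike cluster on 3B at 385143550, with 0.327 RPM in seedling replicate 3, and the root cluster on 1B at 330839162, with 0.111 RPM in seedling replicate 4. Each stood beside 3 libraries at 0, where the gap over range is 1 whatever the level.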

How the results depend on the processing

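Most results kept their direction and their side of the threshold. The log2 cluster ratio of central over rest ranged from -0.63 to -0.60 and the log2 tag ratio from -0.99 to -0.88 when each library was left out in turn. The embryo tag difference ranged from -0.64 to -0.55 then, and the spike one from -0.10 to 0.0341, the seedling one from 0.57 to 0.71. The tissue difference in clusters ranged from -0.0834 to 0.0450 for spike, negative without either spike replicate, and from -0.0041 without root replicate 1 to 0.0574 for embryo, so neither kept its direction. The spike tag difference was above 0 without seedling replicate 2, 3 or 4. Where 1 library of a tissue remained, its 2 tags alone made a cluster.

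With the median over chromosomes, the tag difference was 0.22 for seedling, -0.39 for embryo and 0.21 for spike, and the cluster difference -0.0364 for embryo. Without groups 2 and 3, chosen after seeing the data as was the thinning, the tag difference was 0.13 for seedling, 0.29 for spike and 0.0822 for root. Without groups 2, 3 and 7, also chosen after seeing the data, it was -0.11 for seedling, 0.31 for spike, -0.16 for embryo and 0.0688 for root. Without the 100 highest positions, the spike tag difference was 0.15. The window of 35% to 65% gave 0.0120 for the spike tag difference and 0.0173 for the median log2 RPM. The window of 45% to 55% gave -0.0214 for the embryo cluster difference and 0.35 points for the plus strand. Joining at 50 bp gave 0.0131 for the median log2 RPM and -0.23 points for the plus strand (adjusted p = 0.221, exact). Thinning to the smallest library gave a median log2 RPM difference of 0.000584.

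Counts of central clusters called by edgeR moved most, and those over all clusters tested moved as well. Leaving out a spike or root replicate left 1 library in that tissue and changed the number of clusters tested. Leaving out 1 library gave, for seedling, 319 to 1803 higher and 40 to 204 lower. For spike it gave 30 to 852 higher and 1 to 24 lower, for embryo 68 to 267 higher and 70 to 170 lower, and for root 22 to 1324 higher and 16 to 83 lower. The lower calls for seedling were 98, 87 and 72 without seedling replicate 2, 3 or 4, 40 without either spike replicate, and 104 and 88 without root replicate 1 or 2. Those for embryo were 70, 78 and 74 without embryo replicate 1, 2 or 3, and those for root 18 and 16 without spike replicate 1 or 2. Those for spike were 24 and 8 without seedling replicate 1 or 4, 7 and 1 without spike replicate 1 or 2, and 7 without embryo replicate 3. DESeq2 size factors in edgeR gave 593 higher in spike and 339 in embryo. With no filter, the higher ones numbered 4021 for seedling, 1539 for spike, 1120 for embryo and 2662 for root, and the lower ones 20 for spike and 247 for embryo. DESeq2 gave 41 higher and 29 lower in spike, 377 and 347 in embryo, and 37 higher in root. A replicate block gave 487 higher and 49 lower in seedling, 129 higher in spike and 89 higher in root, but numbers did not pair the libraries. The cause of these moves was not tested.

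For H3K4me3, the ratio of central to rest was 0.583 with peaks of at least 500 bp, 0.605 for 35% to 65% and 0.638 for 45% to 55%. For H3K9ac it was 0.929 with peaks at most 500 bp apart joined, 0.680 with peaks of at least 500 bp and 0.940 for 45% to 55%. Depth limits low clusters, since 3 counts in the smallest library are 1.01 RPM.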
